A study of Mus musculus with 69 samples.

Results

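The natriuretic peptide and cGMP pathway was followed over 9 genes in murine vascular cells under obesity-associated stress. The members are the receptors Npr1, Npr2 and Npr3, the soluble guanylyl cyclase subunits Gucy1a1 and Gucy1b1, the kinase Prkg1 and the phosphodiesterases Pde5a, Pde3a and Pde1c. They were taken from the count tables by their Ensembl gene identifiers, and all 9 were found among the 56953 genes counted. The genes were chosen with earlier results of these data known.

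Natriuretic peptides relax vessels through the membrane guanylyl cyclases encoded by Npr1 (the receptor for ANP and BNP) and Npr2 (the receptor for CNP), which make cGMP. Npr3 encodes the clearance receptor, which binds all natriuretic peptides, carries no cyclase domain and removes the peptides from the extracellular space. Nitric oxide acts through a second source of cGMP, the soluble cyclase built from the Gucy1a1 and Gucy1b1 subunits. Prkg1 encodes the cGMP-dependent protein kinase that lowers Ca2+ and Ca2+ sensitivity in smooth muscle, and the phosphodiesterases end the signal: Pde5a hydrolyzes cGMP, Pde3a hydrolyzes cAMP and is inhibited by cGMP, and Pde1c is stimulated by Ca2+ and calmodulin.

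The data are poly(A) RNA-Seq counts of 69 libraries from cultured primary cells of male C57BL/6 mice. WT VSMC were aortic smooth muscle cells (16 libraries, sets 1 to 4), KO VSMC were aortic smooth muscle cells of mice in which SM22-driven Cre deletes a floxed Egfr gene (15 libraries, sets 5 to 8), and EC were heart cells labelled WT and enriched by beads as CD45-/CD31+ (38 libraries, sets 9 to 18). By the animal numbers in the labels, EC sets 9 and 10 came from the animals of WT VSMC sets 1 and 2, and EC sets 16 and 15 from those of KO VSMC sets 6 and 7, in which the Cre is driven in smooth muscle. Within a set, cells of the same animal were kept as Control or exposed to HG + FFA (20 mM glucose with free fatty acids, given by the labels as 100 µM and by the methods of the study as 100 µM each of oleate and palmitate), to AII + NA (30 nM angiotensin II with 300 nM of a catecholamine, named epinephrine by the labels and norepinephrine by the methods of the study) or to ALL stressors. The labels give 24 h for the stressed libraries and no time for Control. Groups held 4 libraries in VSMC, except ALL in KO VSMC with 3, and in EC 9 (Control and AII + NA) or 10 libraries, where sets 17 and 18 came from the same animal. For VSMC the methods state up to 7 passages and 24 h without serum before the exposure, so that their Control libraries are serum-starved cultures too.

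Counts per library lay between 17166133 and 43240489. Mean Egfr was 246 to 430 FPM in the WT VSMC sets and 0.96 to 1.84 FPM in KO VSMC sets 6 to 8, but 36.5 FPM in KO VSMC set 5. FPM is a count divided by the TMM-normalized size of its library and scaled to the same total in all libraries. The cell types were checked against marker genes. In VSMC libraries the median of Acta2 was 875 FPM in WT and 1290 FPM in KO, while Myh11 (6.40 and 4.78 FPM) and Des (1.45 and 1.67 FPM), which mark contractile smooth muscle, had low medians. Other smooth muscle markers had higher medians in WT and KO. These were Smtn (69.6 and 92.1 FPM), Lmod1 (36.8 and 59.3 FPM), Mylk (28 and 13.2 FPM) and Cnn1 (21.3 and 18.1 FPM). Tagln was at 4.01 and 7 FPM, and 66.7% of its exon bases lie in other genes. Myh11 reached 243 FPM in KO VSMC, against 13.5 FPM in WT VSMC. The 9 endothelial markers were Pecam1, Cdh5, Tek, Kdr, Tie1, Emcn, Erg, Vwf and Cldn5. In EC libraries the highest medians were those of Pecam1 (293 FPM), Cdh5 (256 FPM) and Emcn (154 FPM). Kdr had a median of 3.83 FPM there, and Cldn5 reached at most 1.35 FPM. The sum of the 9 endothelial markers reached at most 69.8 FPM in WT VSMC and 23.4 FPM in KO VSMC libraries. In EC the same sum differed widely between sets, with means of 57.2, 133 and 58.2 FPM in sets 9, 11 and 13. It was between 537 and 4217 FPM in the other sets. The comparison of EC with WT VSMC is therefore given with and without sets 9, 11 and 13. The 4 fibroblast markers were at 608 to 9934 FPM per EC set, with a median sum of 2960 FPM over the EC libraries. Their median sum was 5880 FPM in WT VSMC libraries (3860 to 10800 FPM). In KO VSMC libraries it was 1710 FPM (1150 to 6200 FPM). Fibroblast marker RNA was therefore not confined to the EC cultures. The 8 VSMC markers (Acta2, Tagln, Cnn1, Myh11, Mylk, Smtn, Lmod1, Des) summed to 3302.5 and 3015.5 FPM in EC sets 11 and 13. Each WT VSMC set was lower (774 to 1304 FPM), and the other EC sets were at 219 to 866 FPM. Over libraries, the VSMC marker sum had medians of 1030 FPM in WT VSMC and 1540 FPM in KO VSMC. Both were below the fibroblast marker medians of the same cells. In bulk RNA of this kind, fewer cells of a type and less RNA per cell cannot be told apart.

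Of the 9 genes, 4 lie on chromosome 3 of GRCm39 (Npr1, Gucy1a1, Gucy1b1 and Pde5a) and 2 on chromosome 6 (Pde3a and Pde1c). Gucy1b1 (81939312 to 81982022) and Gucy1a1 (81999733 to 82053216) are neighbours on the minus strand of chromosome 3, 17.7 kb apart, and Npr3 covers 11839982 to 11907373 on the minus strand of chromosome 15. The exons of Gucy1a1, Gucy1b1 and Prkg1 share no bases with other annotated genes, against 2.6% for Npr3 and 18.2% for Pde5a. How reads in bases shared with a gene on the opposite strand were counted is not known, so the Pde5a counts could be too high or too low.

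Promoter sequences were taken from RefSeq (GRCm38.p6) and placed in GRCm39 by an exact match, which was possible for 8 of the 9 members. They are shown for Npr3, the only member with a stressor response that passed all limits for a DEG, and for Gucy1b1. The Gucy1b1 levels did not overlap between WT VSMC and KO VSMC in the Control libraries, as for 5.26% of all genes. Over all conditions they did overlap (8.39 to 27.4 FPM in WT VSMC, 4.44 to 9.46 FPM in KO VSMC). Each covers the 250 bases upstream of the RefSeq start, read 5′ to 3′ on the minus strand, at chr15:11907458-11907707 for Npr3 and at chr3:81982019-81982268 for Gucy1b1, and capitals mark the Sp1 motif. The Npr3 window lies outside the gene as annotated and overlaps an exon of the antisense lncRNA Gm5144.
Npr3: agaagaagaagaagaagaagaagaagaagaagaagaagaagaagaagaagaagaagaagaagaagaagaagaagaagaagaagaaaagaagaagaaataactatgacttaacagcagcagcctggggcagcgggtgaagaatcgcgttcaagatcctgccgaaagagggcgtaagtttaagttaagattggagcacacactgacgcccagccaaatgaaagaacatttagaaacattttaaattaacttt
Gucy1b1: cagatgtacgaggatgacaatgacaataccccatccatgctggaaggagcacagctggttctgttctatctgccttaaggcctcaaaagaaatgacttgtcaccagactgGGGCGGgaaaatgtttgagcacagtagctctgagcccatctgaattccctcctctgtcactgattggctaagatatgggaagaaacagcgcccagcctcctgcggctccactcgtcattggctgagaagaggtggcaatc
The windows were searched on both strands for a small set of motifs, and overlapping matches were counted separately. The letters were TGANTCA for AP-1, the factor built from Fos and Jun proteins. They were GGGCGG for Sp1, a general activator of promoters rich in GC. For the TATA box, which places the start site, the letters TATAAA were used. For TEAD, the partner of the Hippo pathway coactivators, GGAATG was used. The cAMP response element (CRE) was searched in its palindromic form of TGACGTCA. The CArG box, to which serum response factor binds, was the last motif. The Npr3 window began with a run of aag repeats, had a GC content of 38.8% and held none of these letters. The Gucy1b1 window had a GC content of 51.2% and held Sp1 letters 140 bases before the start. For comparison, the median GC content of all 32851 promoter windows was 52.4%, and 32.7% of them held Sp1, 12.6% TEAD, 12.4% TATA, 6.75% AP-1, 1.55% CRE and 1.47% CArG letters. Sp1 letters also stood in the windows of Npr1, Gucy1a1, Pde5a and Prkg1.

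To see which parts of the pathway the unstressed cells express, levels were compared per exon length as TPM over the Control libraries. Among the 9 genes the receptor Npr2 had the highest median in WT VSMC (65.1 TPM), KO VSMC (66.4 TPM) and EC (92.7 TPM). In WT VSMC it was followed by Npr3 (47.4 TPM), Pde3a (24.5 TPM), Pde5a (16.6 TPM) and Gucy1b1 (11.2 TPM). The lower part of the order was made up of Prkg1 (5.12 TPM), Gucy1a1 (2.43 TPM), Npr1 (1.78 TPM) and Pde1c (0.0197 TPM). Many neighbours in this order overlapped over the 4 sets: Npr2 (58.6 to 80.8 TPM) with Npr3 (24.0 to 67.1 TPM), Npr3 with Pde3a (14.6 to 31.5 TPM), and Gucy1a1 (0.735 to 4.58 TPM) with Npr1 (0.638 to 2.43 TPM). Pde1c stayed below every other gene in every VSMC Control library. In WT VSMC it had 1 to 9 reads in the Control libraries.

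In EC the order was Npr2, Pde3a (49.5 TPM), Gucy1b1 (34.1 TPM), Npr3 (30.2 TPM), Prkg1 (27.7 TPM), Pde5a (10.8 TPM), Gucy1a1 (3.08 TPM), Npr1 (2.49 TPM) and Pde1c (0.188 TPM). The EC sets were spread far more than the VSMC sets. Npr1 ranged from 0.871 to 101 TPM over the 9 Control libraries of EC, and Gucy1b1 from 2.87 to 142 TPM. In all 3 cell types the median of Gucy1b1 was above that of Gucy1a1, its partner in the soluble cyclase.

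**Figure D1:**
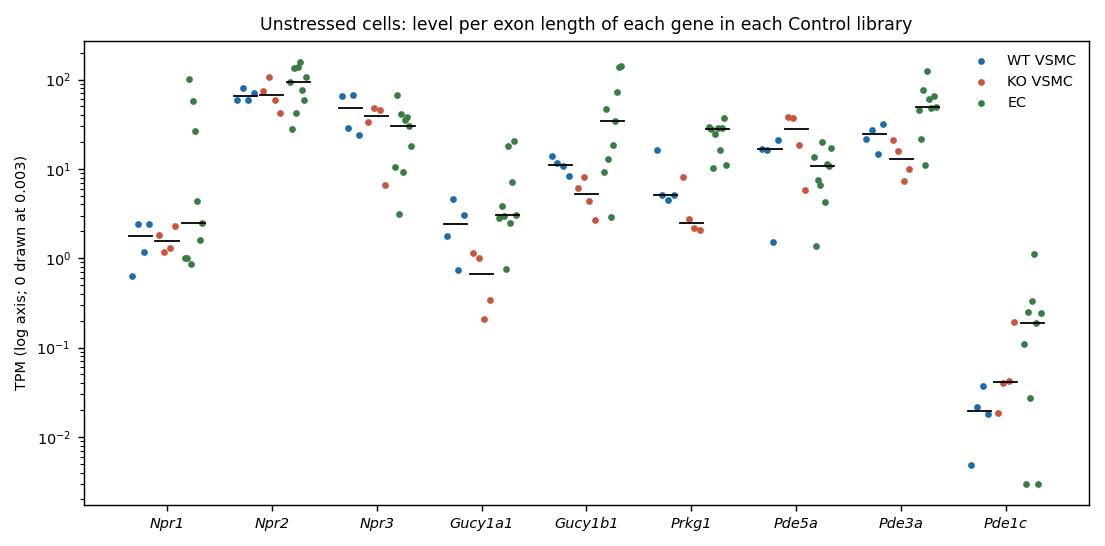
Level of each member per exon length (TPM, log axis) in each Control library of WT VSMC, KO VSMC and EC. Each point is a library, black bars are group medians, and libraries without a read are drawn at 0.003. Npr2 lies at the top and Pde1c at the bottom in each cell type, and Npr1 spans 0.871 to 101 TPM in EC.

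For most members, levels differed more between sets, that is, between animals and their cultures, than between conditions. For 8 members (Pde1c was left out because of its low counts), the fold between the highest and the lowest set mean exceeded the median fold among the 4 conditions within a set in WT VSMC (8 of 8 genes), KO VSMC (8 of 8) and EC (8 of 8). It exceeded even the largest fold within any set for 7 of 8 genes in WT VSMC, 6 of 8 in KO VSMC and 8 of 8 in EC. The exceptions were Npr3 in WT VSMC (2.36 between sets, 2.46 within a set) and, in KO VSMC, Npr1 (2.30 and 2.62) and Gucy1b1 (1.58 and 1.68). In WT VSMC the folds between sets were 9.32 for Pde5a, 7.01 for Gucy1a1 and 1.52 for Npr2. Npr2 was the most even of the 8 genes between sets in WT VSMC and in EC, where its fold between sets was 3.24 against 159 for Npr1. Stressor effects were therefore tested against the Control library of the same set, with the set number as replicate block.

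A gene was called a DEG when FDR was below 0.05 in edgeR and in DESeq2, |log2FC| was at least 0.64 and the mean was at least 3 FPM in one of the groups. In WT VSMC, ALL stressors changed 1 of the 8 members tested, against 2.14% of all genes. None of the 8 was a DEG after HG + FFA (0.284% of all genes) or AII + NA (0.0414%). With an unadjusted edgeR p below 0.05 there were 3 of 8 members after ALL stressors (21.7% of all genes), 3 after HG + FFA (11.2%) and 3 after AII + NA (9.42%). Pde1c had too few reads to be tested in WT VSMC. DESeq2 alone gave the same count of members for each of these 3 comparisons (1, 0 and 0).

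In KO VSMC none of the 9 members was a DEG by edgeR and DESeq2 after HG + FFA (0.285% of all genes), AII + NA (0%) or ALL stressors (0.314%). An unadjusted p below 0.05 was found for 0 members after HG + FFA (12.4% of all genes), 4 after AII + NA (9.76%) and 1 after ALL stressors (10.5%). In EC none of the 9 was a DEG after HG + FFA (0.647%), AII + NA (0%) or ALL stressors (0.641%), with 3, 0 and 3 members at an unadjusted p below 0.05 (16.9%, 6.67% and 16.2% of all genes). In these KO VSMC and EC comparisons DESeq2 alone, with the log2FC and FPM limits, called no member either. The 3 comparisons within a cell type share their Control libraries.

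**Figure D2:**
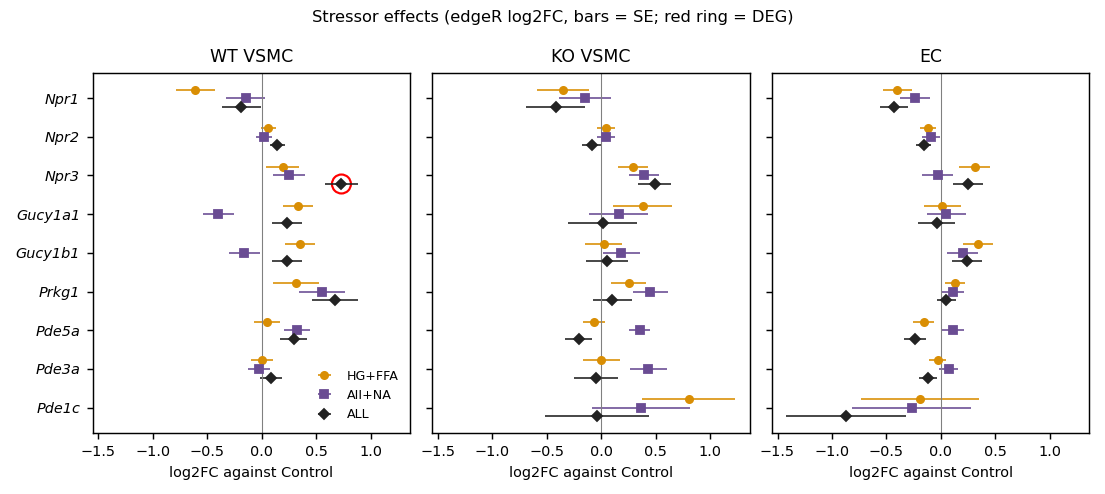
Stressor effects on each member in WT VSMC, KO VSMC and EC. Points are edgeR log2FC against the Control of the same set, bars are SE, and the red ring marks the DEG. The only ring is at Npr3 in WT VSMC under ALL stressors, with a log2FC of 0.73, and Pde1c was not tested in WT VSMC.

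The member that responded was the clearance receptor Npr3. In WT VSMC sets 1 to 4 it was at 240, 109, 263 and 85.5 FPM in Control and at 316, 194, 348 and 211 FPM after ALL stressors. Npr3 rose in 4 of 4 sets, and most in sets 2 and 4, which had the lowest Control levels, while the groups as such overlapped. The log2FC was 0.73 (SE 0.15, edgeR FDR 0.00676, DESeq2 FDR 5.23e-05), a 1.66-fold increase. The ratios to the Control of the same set were 1.31, 1.77, 1.32 and 2.46 for sets 1 to 4. Without set 4 the log2FC was 0.54 and no longer reached the limit of 0.64, and without set 2 it was 0.70 with a DESeq2 FDR of 0.0553. Without the replicate block the log2FC was 0.61 (FDR 1).

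The sum of the 8 VSMC markers also moved most in sets 2 and 4. It went from 943, 509, 1212 and 381 FPM in Control to 1188, 1214, 1121 and 1592 FPM under ALL stressors in sets 1 to 4. This sum was mostly Acta2, with medians over all WT VSMC libraries of 875 FPM for Acta2 and 1030 FPM for the sum. Fibroblast markers moved from 4703, 7440, 5182 and 10810 FPM to 4422, 5938, 5821 and 7515 FPM. The cardiomyocyte list (Myh6, Tnnt2, Actc1, Ryr2) moved from 3.42, 15.9, 21.6 and 30.1 FPM to 2.66, 46.8, 29.7 and 120 FPM. Nearly all of this list sum was Tnnt2. Myh6, Actc1 and Ryr2 reached at most 0.032, 0.0965 and 0.353 FPM in WT VSMC libraries. The part of the VSMC markers, the fibroblast markers and Tnnt2 in the WT VSMC values of Npr3, Prkg1, Hspb6 and Irag1 was not tested. In KO VSMC sets 6 to 8 the VSMC markers were at 1130, 1996 and 1003 FPM in Control and at 1172, 1985 and 826 FPM under ALL stressors.

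The single stressors gave smaller values for Npr3 in WT VSMC. After HG + FFA it was at 251, 128, 330 and 93.3 FPM (log2FC 0.19, SE 0.15, edgeR FDR 0.68), and after AII + NA at 250, 127, 252 and 146 FPM (log2FC 0.25, SE 0.15, edgeR FDR 0.646). After HG + FFA all 4 sets were above their Control, and after AII + NA 3 of 4. The log2FC between ALL stressors and HG + FFA was 0.54 (SE 0.15, edgeR FDR 0.154), and the departure from additivity of the single stressors was 0.30 (SE 0.21, edgeR FDR 1).

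In KO VSMC sets 5 to 8 the Control levels of Npr3 were 113, 163, 189 and 32.5 FPM, and ALL stressors gave 218, 241 and 66.3 FPM in sets 6 to 8. All 3 sets lay above their Control, with ratios of 1.33, 1.28 and 2.04, and the largest ratio again belonged to the set with the lowest Control level. The log2FC of 0.49 (SE 0.15) had an edgeR FDR of 0.244 and was no DEG. The difference between genotypes in this response was 0.24 (SE 0.23, edgeR FDR 0.826), so that a difference was not detectable at this spread. Averaged over both genotypes, an analysis added after the data were seen, Npr3 had a log2FC of 0.61 under ALL stressors (SE 0.11, edgeR FDR 0.00119, 7 of 7 sets higher). That is a significant increase below the log2FC limit, so none of the 9 members was a DEG in this average (1.27% of all genes), nor after HG + FFA (0.556%) or AII + NA (0.202%). At an unadjusted p below 0.05 there were 2, 3 and 3 members (22.1%, 20.3% and 8.04% of all genes), and DESeq2 alone called 0 in each. Without WT VSMC set 1 or 3, or KO VSMC set 5 or 7, the average for Npr3 under ALL stressors did pass the limit.

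**Figure D3:**
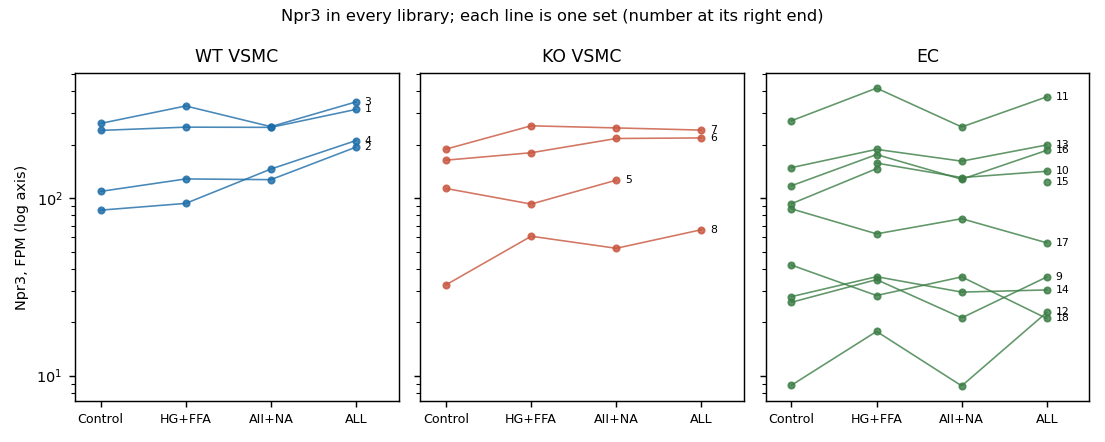
Npr3 level (FPM, log axis) in every library of WT VSMC, KO VSMC and EC under the 4 conditions. Each line is a set, its number stands at the right end, and a gap is a library not analysed here. In WT VSMC all 4 lines end higher under ALL stressors (194 to 348 FPM) than in Control (85.5 to 263 FPM).

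The genes whose response was most like that of Npr3 were looked up by the Pearson correlation of the log2 ratio to the Control of the same set, over 23 ratios from stressed VSMC libraries and 11614 genes whose mean reached 3 FPM. They were Gask1b (r = 0.901), Nedd9 (r = 0.889), which encodes a focal adhesion scaffold protein, and Lclat1 (r = 0.856), which encodes a lysocardiolipin acyltransferase. The ratios of a set share its Control library, and the values are a description only.

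In EC, Npr3 was at 8.83 to 272 FPM in Control (median 86.9 FPM). It was higher than the Control of the same set in 7 of 9 sets after HG + FFA (log2FC 0.31, SE 0.14, edgeR FDR 0.244) and in 7 of 9 after ALL stressors (log2FC 0.25, SE 0.14, edgeR FDR 0.40). The exceptions were sets 17 and 18, which came from the same animal. After AII + NA the log2FC was -0.03 (SE 0.14).

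The share of Npr3 in the summed TPM of the 3 natriuretic peptide receptors describes the balance between clearance and cyclase receptor transcripts. In WT VSMC the median share was 39.2% in Control (24.6 to 52.9%) and 48.6% under ALL stressors (35.1 to 60.2%). In KO VSMC it was 30.6% (12.9 to 43%) and 36.5% (25.0 to 52.8%), and in EC 16% (1.29 to 69.8%) and 25.3% (3.07 to 74.1%). The ranges overlapped in each cell type, but within sets the share was higher under ALL stressors than in Control in 4 of 4 sets of WT VSMC (24.6 to 40.2% in set 4), in 3 of 3 of KO VSMC (12.9 to 25% in set 8) and in 7 of 9 of EC. These shares hold the same Npr3 counts and are no separate evidence. In the VSMC Control libraries Npr1 supplied at most 4.46% of the receptor transcripts, so that the cyclase receptor RNA of VSMC was almost wholly Npr2.

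Npr1, the ANP and BNP receptor, was low in VSMC. In WT VSMC sets 1 to 4 it was at 1.35, 5.22, 2.70 and 5.02 FPM in Control and at 1.02, 3.69, 1.73 and 2.86 FPM after HG + FFA. It was lower in 4 of 4 sets with a log2FC of -0.61 (SE 0.18), which did not pass the adjustment (edgeR FDR 0.18). After ALL stressors the log2FC was -0.19 (SE 0.18). In KO VSMC the log2FC was -0.35 (SE 0.24) after HG + FFA and -0.42 (SE 0.27) after ALL stressors, with 1 of 4 and 1 of 3 sets above Control. In EC, where Npr1 reached 168 FPM in Control, the log2FC was -0.40 (SE 0.13, edgeR FDR 0.0886, DESeq2 FDR 0.0309) after HG + FFA and -0.43 (SE 0.13, edgeR FDR 0.0664, DESeq2 FDR 0.0253) after ALL stressors. In each, 7 of 9 sets were lower than their Control, and neither value reached the limits for a DEG. With the animal in place of the set as block, the edgeR FDR was 0.384 and 0.377. The set with the highest Npr1, set 12, went the other way, from 168 FPM in Control to 179 FPM after HG + FFA and 197 FPM after ALL stressors.

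Npr2, the CNP receptor, differed little between conditions. In WT VSMC sets 1 to 4 it was at 183, 258, 196 and 216 FPM in Control and at 200, 297, 193 and 259 FPM after ALL stressors, a log2FC of 0.14 (SE 0.07, edgeR FDR 0.254). Over the 9 stressor comparisons its log2FC lay between -0.16 (EC under ALL stressors) and 0.14, with the smallest SE of all members. No change of this receptor passed the test.

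The soluble cyclase subunits are regulated by nitric oxide at the protein level and form a heterodimer. In WT VSMC sets 1 to 4, Gucy1b1 was at 17.5, 14.9, 14.4 and 10.2 FPM in Control and at 27.4, 24.9, 13.7 and 10.4 FPM after HG + FFA. Gucy1a1 was at 5.43, 14.5, 2.42 and 9.22 FPM in Control and at 8.32, 22.3, 2.21 and 9.33 FPM after HG + FFA. Both subunits were higher in sets 1 and 2 and nearly level in sets 3 and 4. The log2FC was 0.35 for Gucy1b1 (SE 0.14, edgeR FDR 0.345) and 0.33 for Gucy1a1 (SE 0.14, edgeR FDR 0.361). After AII + NA both were lower in 4 of 4 sets, with a log2FC of -0.40 for Gucy1a1 (SE 0.14, edgeR FDR 0.346) and -0.16 for Gucy1b1 (SE 0.14, edgeR FDR 0.786). None of these values passed the adjustment over all genes. In EC, Gucy1b1 had a log2FC of 0.34 after HG + FFA (SE 0.14, edgeR FDR 0.192, 7 of 9 sets higher), and Gucy1a1 of 0.01 (SE 0.17).

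Prkg1, the cGMP-dependent kinase, was at 53.2, 17.1, 15.5 and 16.3 FPM in WT VSMC Control and at 54.1, 30.7, 21.4 and 44.8 FPM after ALL stressors. Set 1 hardly moved from its high Control level, while sets 2 to 4 were higher. The log2FC was 0.67 (SE 0.21, edgeR FDR 0.063, DESeq2 FDR 0.116), which passed in neither tool. Without set 1 it was 0.92 (edgeR FDR 0.036, DESeq2 FDR 0.0392), which made Prkg1 a DEG beside Npr3. After AII + NA the log2FC was 0.55 in WT VSMC (SE 0.21, edgeR FDR 0.377) and 0.45 in KO VSMC (SE 0.16, edgeR FDR 0.509). In KO VSMC under ALL stressors it was 0.10 (SE 0.18), and the difference between genotypes was 0.58 (SE 0.31, edgeR FDR 0.701). In EC the log2FC lay between 0.05 and 0.13 for the 3 stressor conditions.

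Of the phosphodiesterases, Pde5a was above Control after AII + NA in nearly all VSMC sets, though it passed the test in no stressor comparison. In WT VSMC sets 1 to 4 it was at 52.4, 53.2, 5.12 and 63.7 FPM in Control and at 63.0, 68.2, 7.74 and 71.1 FPM after AII + NA. In KO VSMC sets 5 to 8 it was at 110, 109, 67.4 and 24.5 FPM in Control and at 110, 142, 94.8 and 35.6 FPM after AII + NA. All sets of both genotypes lay above their Control except that set 5 was almost level, and set 3 had far less Pde5a than the other WT VSMC sets in both conditions. The log2FC was 0.32 (SE 0.12, edgeR FDR 0.342) in WT VSMC and 0.35 (SE 0.10, edgeR FDR 0.509) in KO VSMC. Averaged over both genotypes it was 0.34 (SE 0.08, p = 0.000298 and FDR 0.0585 by edgeR, 8 of 8 sets higher), which missed the FDR limit. Under ALL stressors the log2FC was 0.29 in WT VSMC (SE 0.12, edgeR FDR 0.148) and -0.21 in KO VSMC (SE 0.12, edgeR FDR 0.556). In EC it was 0.11 (SE 0.10) after AII + NA and -0.24 (SE 0.10, edgeR FDR 0.205) after ALL stressors.

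Pde3a, which cGMP inhibits, was at 82.2, 106, 59.0 and 116 FPM in WT VSMC Control and at 71.5, 120, 62.8 and 135 FPM after ALL stressors (log2FC 0.08, SE 0.10). The groups overlapped. Its largest value in VSMC was a log2FC of 0.43 in KO VSMC after AII + NA (SE 0.17, edgeR FDR 0.509, 3 of 4 sets higher). In EC the log2FC lay between -0.12 and 0.07. Pde1c stayed at or below 0.251 FPM in each WT VSMC library and reached 2.75 FPM in KO VSMC set 8, and no effect was detectable at this depth in KO VSMC (log2FC 0.80, SE 0.43, edgeR FDR 0.45 after HG + FFA) or EC (log2FC -0.87, SE 0.55, edgeR FDR 0.462 under ALL stressors).

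To ask whether the combination exceeded the single stressors, ALL stressors were compared with HG + FFA and with the sum of the single effects. None of the members tested was a DEG by edgeR and DESeq2 for ALL stressors minus HG + FFA in WT VSMC (0.0296% of all genes), KO VSMC (0%) or EC (0%), with 2, 0 and 0 members at an unadjusted p below 0.05 (10.8%, 2.91% and 5.14% of all genes). None departed from additivity in WT VSMC (0%), KO VSMC (0%) or EC (0%), with 1, 2 and 0 members at an unadjusted p below 0.05 (1.72%, 6.59% and 8.42%). In WT VSMC these were Npr1 (0.41, SE 0.19, edgeR FDR 0.434) and Npr3 between ALL stressors and HG + FFA, and Npr1 for additivity (0.57, SE 0.26, edgeR FDR 1). In KO VSMC they were Pde5a (-0.49, SE 0.15, edgeR FDR 0.658) and Prkg1 (-0.60, SE 0.24, edgeR FDR 0.658). Both had a higher log2FC after AII + NA alone than after ALL stressors in these cells.

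Whether the stressor effects differ between cells with and without EGFR was tested in a joint model of all VSMC libraries, where a positive value means a higher log2FC in WT VSMC. No member was a DEG by edgeR and DESeq2 in this difference for HG + FFA (0% of all genes), AII + NA (0%) or ALL stressors (0.0109%). DESeq2 alone called no member here or for additivity and ALL stressors minus HG + FFA. An unadjusted p below 0.05 was found for 0, 1 and 2 members (3.08%, 11.9% and 7.42% of all genes). These were Pde3a for AII + NA (-0.45, SE 0.21, edgeR FDR 0.416), and Pde5a (0.50, SE 0.17, edgeR FDR 0.463) and Npr2 (0.24, SE 0.10, edgeR FDR 0.609) for ALL stressors.

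In unstressed cells, no member was a DEG between KO VSMC and WT VSMC (0.00622% of all genes, which is 1 gene and not Egfr). Egfr, the deleted gene, was itself not called (log2FC -5.15, SE 1.37, edgeR FDR 0.32, DESeq2 FDR 0.00858). An absent call in this comparison therefore says little. At an unadjusted edgeR p below 0.05 there were 3 of 8 members, all lower in KO VSMC (12.2% of all genes), and DESeq2 alone, with the log2FC and FPM limits, called 2, Gucy1a1 and Gucy1b1. Gucy1b1 was at 6.99, 9.39, 6.30 and 4.44 FPM in KO VSMC sets 5 to 8, below each of the WT VSMC sets at 10.2 to 17.5 FPM. It was the only one of the 8 members whose groups did not overlap, against 5.26% of all genes. The log2FC was -1.08 (SE 0.26, p = 0.00246 and FDR 0.294 by edgeR, DESeq2 FDR 0.0191). Gucy1a1 was at 3.23, 2.85, 0.734 and 1.42 FPM in KO VSMC and at 2.42 to 14.5 FPM in WT VSMC, a log2FC of -1.94 (SE 0.61, edgeR FDR 0.361). Pde3a (log2FC -0.78, SE 0.28, edgeR FDR 0.388) and Prkg1 (log2FC -1.04, SE 0.52, edgeR FDR 0.427) overlapped between the groups.

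Set 5, which kept 36.5 FPM of Egfr, had the highest Gucy1a1, Prkg1 (24.5 FPM) and Pde3a (73.5 FPM) of the KO VSMC Control libraries. Without it the log2FC was -1.09 for Gucy1b1 (edgeR FDR 0.0853), -2.24 for Gucy1a1 (0.0984), -0.98 for Pde3a (0.0928) and -1.60 for Prkg1 (0.0949), and still no member was a DEG. Without WT VSMC set 1, whose Prkg1 of 53.2 FPM stood apart from 15.5 to 17.1 FPM in the others, the log2FC of Prkg1 was -0.38 (edgeR FDR 0.683). The summed fibroblast markers differed in the same direction as these members, at 4290 to 8878 FPM per set in WT VSMC, 5825 FPM in KO VSMC set 5 and 1422 to 2087 FPM in KO VSMC sets 6 to 8, and the 8 summed VSMC markers were at 774 to 1304 FPM in WT VSMC and at 901 to 3285 FPM in KO VSMC. Their part in the differences was not tested. Among the receptors, Npr1 had a log2FC of 0.12 (SE 0.48), Npr2 of 0.09 (SE 0.20) and Npr3 of -0.50 (SE 0.53). Pde5a had a log2FC of 0.82 (SE 0.67). None of these 4 passed the test.

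**Figure D4:**
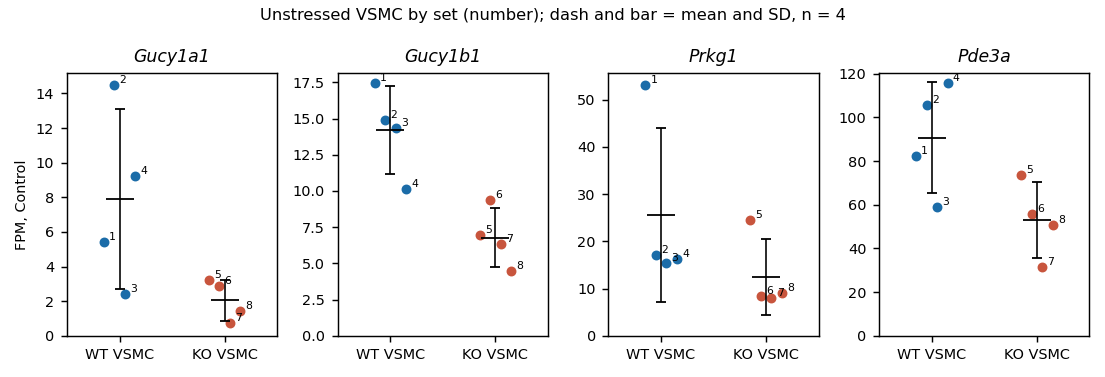
Level (FPM, linear axis from 0) of Gucy1a1, Gucy1b1, Prkg1 and Pde3a in the Control libraries of WT VSMC and KO VSMC. Points are sets with their numbers, dashes and bars are mean and SD (n = 4). The KO VSMC sets lie at 4.44 to 9.39 FPM of Gucy1b1, below the WT VSMC sets at 10.2 to 17.5 FPM.

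EC and WT VSMC were compared in unstressed cells, with the counts of sets 17 and 18 summed as 1 animal. EC set 9 and WT VSMC set 1 came from the same animal, which the test did not take into account. Cell type, tissue of origin, culture and the batch named in the labels cannot be told apart in this comparison. Of the 9 members 1 was a DEG, Prkg1, against 9.29% of all genes, and 3 had an unadjusted p below 0.05 (30.9%). No member had groups that did not overlap (7.62% of all genes). Prkg1 was at 22.5 to 100 FPM in EC (median 76.2 FPM) and at 15.5 to 53.2 FPM in WT VSMC, a log2FC of 1.37 (SE 0.42, edgeR FDR 0.0479, DESeq2 FDR 0.0113). The call depended on single sets: without WT VSMC set 1 the log2FC was 2.02 (edgeR FDR 0.0157), and leaving out WT VSMC set 2, 3 or 4, or EC set 9, 11, 13, 14, 16 or 17, ended it. Npr1 had the largest log2FC, 3.51 (SE 1.43), but with an edgeR FDR of 0.116 (DESeq2 FDR 0.0237), and Pde1c had 3.22 (SE 1.15, edgeR FDR 0.079).

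Without EC sets 9, 11 and 13, an alternative added after the data were seen, 3 members were DEG: Npr1 (log2FC 4.17, SE 1.10, edgeR FDR 0.0176), Gucy1b1 (1.92, SE 0.63, edgeR FDR 0.0424) and Pde3a (1.27, SE 0.32, edgeR FDR 0.0141), while Prkg1 was not (1.16, SE 0.46, edgeR FDR 0.0806). These 3 sets were left out for their low endothelial markers, and the level of Npr1 and Pde3a across EC sets went with those same markers, as the next values show.

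Npr1 was at 177, 85.2, 52.0 and 35.0 FPM in EC sets 12, 14, 10 and 15, the mean of each set, and at or below 7.02 FPM in the other 6. Sets 12, 14, 10 and 15 had 1889 to 4217 FPM of endothelial markers. Set 18 had as much of them (3540 FPM) but only 2.85 FPM of Npr1. Over the 9 animals, the log2 level of Npr1 correlated with the log2 sum of endothelial markers with r = 0.859 (exact permutation p = 0.0049, adjusted over 27 relations 0.0265) and rho = 0.917 (p = 0.00131, adjusted 0.0177, exact permutation). Without the 2 animals farthest from the median of the markers r was 0.788.

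With the fibroblast markers the relation was negative, and Npr1 had r = -0.857 (exact permutation p = 0.00211, adjusted 0.019) and rho = -0.90 (exact permutation p = 0.00203, adjusted 0.0183), with r = -0.743 without the 2 farthest animals. Npr2 and Pde3a also had a negative relation with these markers (r = -0.857 for Pde3a, exact permutation p = 0.00211, adjusted 0.019, rho = -0.883, adjusted 0.0208, and -0.854 without the 2 farthest animals). Npr2 had r = -0.909 with fibroblast markers (exact permutation p = 0.000733, adjusted 0.019), rho = -0.933 (exact permutation p = 0.00075, adjusted 0.0177), and -0.874 without the 2 farthest animals. With endothelial markers Npr2 had r = 0.813 (exact permutation p = 0.0118, adjusted 0.053) and rho = 0.85 (exact permutation p = 0.00607, adjusted 0.0328), and r = 0.915 without the 2 farthest animals. Pde3a had r = 0.782 with endothelial markers (exact permutation p = 0.00313, adjusted 0.0211), rho = 0.833 (exact permutation p = 0.00827, adjusted 0.0372), and 0.721 without the 2 farthest animals. Npr3 stood on the other side, with r = 0.757 with fibroblast markers (exact permutation p = 0.0199, adjusted 0.0703), rho = 0.683 (exact permutation p = 0.0503, adjusted 0.17), and 0.591 without the 2 farthest animals, which did not pass the adjustment. EC set 11, with 8838 FPM of fibroblast markers, had the highest Npr3 (328 FPM), and set 12, with 608 FPM, the lowest (14.5 FPM). For Gucy1a1, Gucy1b1, Prkg1, Pde5a and Pde1c no relation with any of the 3 marker sums passed the adjustment. All EC libraries carry the same label batch. Differences in handling between EC sets within this label were not tested.

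**Figure D5:**
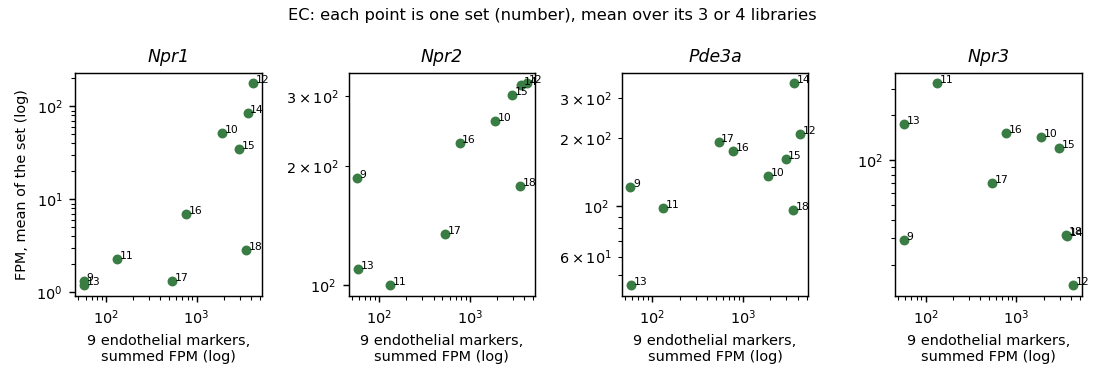
Mean level of Npr1, Npr2, Pde3a and Npr3 (FPM, log axes) against the sum of 9 endothelial markers in each EC set. Each point is a set with its number, averaged over its 3 or 4 libraries, with sets 17 and 18 from the same animal. Npr1 reaches 177 FPM in set 12, where the markers sum to 4217 FPM, and set 18 lies apart with 2.85 FPM at 3540 FPM of markers.

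The other genes of the pathway were followed as a list of 49, from ligands to kinase targets, chosen with results of these data known. The ligand genes were near zero: over all libraries Nppa reached at most 0.350 FPM, Nppb 1.99 FPM and Nppc 1.40 FPM, so that almost no ligand RNA was counted in these cultures beside the receptors. Of the Nppa exon bases 60.4% lie in genes on the opposite strand, and how reads there were counted is not known. Furin, a protease that processes propeptides, was expressed throughout (53.3 to 193 FPM). Nos3, the endothelial nitric oxide synthase, reached 14.7 FPM in EC and 2.37 FPM in WT VSMC. Of the other phosphodiesterases, Pde1a had a median of 47.0 FPM and Pde1b of 17.3 FPM in WT VSMC, far above Pde1c.

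Under ALL stressors 3 of 33 list genes tested were DEG in WT VSMC, of which 2 rose and 1 fell, against 2.14% of all genes (median log2FC of the list -0.05, of all genes -0.01). Hspb6, the small heat shock protein HSP20 and a substrate of cyclic nucleotide-dependent kinases, was at 13.1, 16, 22.7 and 14.1 FPM in Control and at 19.0, 33.6, 39.0 and 30.9 FPM after ALL stressors. It rose in 4 of 4 sets with a log2FC of 0.88 (SE 0.14, edgeR FDR 0.0017). Irag1, which links the cGMP-dependent kinase to the IP3 receptor, was at 1.98, 12.7, 6.18 and 15.3 FPM in Control and at 3.22, 17.8, 9.44 and 32.3 FPM after ALL stressors (log2FC 0.73, SE 0.21, edgeR FDR 0.0423). It also rose in 4 of 4 sets, but leaving out set 1, 3 or 4 ended the call. Mme, neprilysin, a peptidase that degrades natriuretic peptides, fell from 2.1, 11.9, 1.44 and 7.88 FPM to 1.66, 5.23, 1.08 and 3.12 FPM (log2FC -0.90, SE 0.24, edgeR FDR 0.0307), a call that leaving out set 2 or 4 ended.

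In KO VSMC 1 of 35 list genes tested was a DEG under ALL stressors (0.314% of all genes), Pde1b, which encodes another phosphodiesterase stimulated by Ca2+ and calmodulin. It was at 5.36, 4.80 and 8.03 FPM in Control and at 11.5, 9.06 and 13.6 FPM after ALL stressors in sets 6 to 8 (log2FC 0.91, SE 0.16, edgeR FDR 0.02), and leaving out any of these sets ended the call. In WT VSMC the log2FC of Pde1b was 0.64 (SE 0.09, edgeR FDR 0.000751), a significant increase in 4 of 4 sets that fell just short of the log2FC limit. Pde1b was also above Control after HG + FFA alone. In WT VSMC sets 1 to 4 it was at 21.8, 20.9, 15.4 and 13.8 FPM (Control 14.7, 19.7, 12.4 and 10.3 FPM). In KO VSMC sets 5 to 8 it was at 10.2, 11.2, 5.73 and 12.3 FPM (Control 7.82, 5.36, 4.80 and 8.03 FPM). In EC its log2FC was 0.86 after HG + FFA (SE 0.26, edgeR FDR 0.0536, DESeq2 FDR 0.0132, 9 of 9 sets higher) and 0.57 under ALL stressors (SE 0.26, edgeR FDR 0.259). Hspb6 and Irag1 had a log2FC of 0.17 (SE 0.13) and -0.14 (SE 0.17) in KO VSMC under ALL stressors. Averaged over both genotypes, Pde1b rose (log2FC 0.78, SE 0.08, edgeR FDR 3.08e-06, 7 of 7 sets) and Mme fell (-0.78, SE 0.23, edgeR FDR 0.0398, 6 of 7 sets) under ALL stressors, against 1.27% of all genes called. The call for Mme ended without WT VSMC set 2 or 4 or KO VSMC set 5 or 7, with an FDR of up to 0.193.

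No list gene was a DEG by edgeR and DESeq2 after HG + FFA or AII + NA alone. An unadjusted edgeR p below 0.05 was found after HG + FFA for 6 of 33 genes in WT VSMC (11.2% of all genes), for 7 of 35 genes in KO VSMC (12.4%) and for 7 of 33 genes in EC (16.9%). After AII + NA it was found for 6, 3 and 2 of them (9.42%, 9.76% and 6.67% of all genes). DESeq2 alone called 1, which was Pde1b in EC after HG + FFA. None was a DEG after ALL stressors in EC, with 3 of 33 at an unadjusted p below 0.05 (16.2% of all genes) and 0 by DESeq2 alone. None differed between genotypes in its stressor effect, with 1, 7 and 6 of 37 genes at an unadjusted p below 0.05 for HG + FFA, AII + NA and ALL stressors (3.08%, 11.9% and 7.42% of all genes) and 0 by DESeq2 alone.

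Between unstressed EC and WT VSMC 4 of 32 list genes tested were DEG, against 9.29% of all genes. Itpr1, the IP3 receptor that releases Ca2+ and a target of the cGMP-dependent kinase, was higher in EC (log2FC 2.17, SE 0.39, edgeR FDR 0.00636), as was Pde4a, a cAMP phosphodiesterase (0.89, SE 0.22, edgeR FDR 0.0212). Kcnma1, the large-conductance Ca2+-activated K+ channel, was lower in EC (-6.87, SE 0.93, edgeR FDR 0.00156), as was Ddah2, which degrades inhibitors of nitric oxide synthase (-0.94, SE 0.16, edgeR FDR 0.00494). Kcnma1 was at most 0.892 FPM in all EC libraries and at 5.22 to 77 FPM in WT VSMC, so that its fitted fold depends on the prior count. Without EC sets 9, 11 and 13 all 4 were still called, with a log2FC of 2.44 for Itpr1, 1.06 for Pde4a, -7.93 for Kcnma1 and -0.88 for Ddah2. Without WT VSMC set 1, 2 or 4 the call for Pde4a ended (edgeR FDR up to 0.0683), and without set 3 that for Kcnma1, whose edgeR FDR was still 0.00208. Between unstressed KO VSMC and WT VSMC none of 28 list genes was a DEG by edgeR and DESeq2, with 4 at an unadjusted edgeR p below 0.05 (12.2% of all genes) and 2 called by DESeq2 alone.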

How the data were processed

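The authors aligned poly(A) RNA-Seq reads with HISAT2 2.1.0 to mm39, assigned them to genes with featureCounts (options -M and -t exon) and deposited raw counts per gene. Strand setting and treatment of read pairs and of reads with several alignments beyond -M are not given in the sources used here. No reads were aligned here. Positions, exon lengths and symbols came from the GENCODE annotation of GRCm39, and 56310 of 56953 identifiers matched. The members and lists were chosen with earlier results of these data known.

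With R 4.3.3, edgeR 4.0.16 (TMM, filterByExpr, quasi-likelihood test) and DESeq2 1.42.0, all genes of a cell type were fitted with condition and set number, with Benjamini-Hochberg adjustment across the whole table. Set numbers pair libraries, since the methods of the study state that a set is 1 animal at 1 passage exposed in parallel. Deviations of same-set libraries from their group means correlated with r of at least 0.494. Unstressed groups were compared without a block. Each SE was derived as |log2FC| divided by the square root of the F value of the edgeR test. It is unreliable for a very small log2FC or very low counts. The model scripts were tested on simulated data. In these, the comparisons between unstressed groups, which have no block, recovered very few of the changes put in, so that an absent call there says little. The smallest chi-square per gene between libraries of a group was 45.9, so no library was a duplicate. Marker relations used Python 3.11.15 with SciPy 1.17.1, log2(FPM + 0.1) and exact two-sided permutation tests over 9 animals. Named genes are the members, every list gene that was a DEG under a stressor, up to 5 list genes in each direction between cell types or genotypes, and the 3 genes most like a responding member. Columns of 3 libraries of the study were not analysed here.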

Additional observations from a re-analysis of the deposited data

Results flagged for a closer look

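In 99 groups of a member and a condition, the highest or lowest library was tested for a gap to its nearest neighbour that takes up an unusual share of the range of the group. It did so in 14. A share of about 1 in 20 would apply only to normally distributed values. The gaps were taken on linear FPM, which was skewed in EC (Npr1 at 0.661 to 179 FPM after HG + FFA). The 14 are therefore a description, and no excess can be read from them. Several of the 14 belong to the same set and are not independent.

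In WT VSMC Control, Prkg1 was 53.2 FPM in set 1 against 15.5 to 17.1 FPM in the others, and in KO VSMC Control it was 24.5 FPM in set 5 against 8.07 to 8.98 FPM. Set 5 is also the set with residual Egfr. Pde5a was 7.74 FPM in set 3 of WT VSMC after AII + NA, where the other sets were at 63.0 to 71.1 FPM, and was as low in that set in the other conditions.

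In EC, Npr1 of set 12 was 179 FPM after HG + FFA and 197 FPM after ALL stressors, with 77.8 and 73.2 FPM in the next highest set. Npr3 of set 11 was 416 FPM after HG + FFA and 371 FPM after ALL stressors, with 188 and 199 FPM in the next. Pde3a of set 14 was 343 FPM after HG + FFA against at most 193 FPM elsewhere.

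Pde1c, low in most libraries, was 1.61 FPM in Control and 2.75 FPM after HG + FFA in KO VSMC set 8. In EC it was 4.99 FPM in Control, 6.46 FPM after HG + FFA and 3.77 FPM after ALL stressors in set 15, and 2.46 FPM after AII + NA in set 10. In these groups the other libraries were at or below 2.70 FPM.

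No member was higher in all sets of a cell type and lower in all sets of another under the same stressor, in 81 such comparisons.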

How the results depend on the processing

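Counts of members called were recomputed under each alternative, and 300 of 322 kept within the main count. Under ALL stressors in WT VSMC the count was 1, and it was 0 with no replicate block and 0 to 2 when leaving out each set (0 without set 2 or 4, 2 without set 1). The fit with no replicate block called 0 members in each other stressor comparison too, as did the fit with it. Averaged over both genotypes the count under ALL stressors was 0, against 1 with no log2FC limit and 0 to 1 when leaving out each set. For unstressed KO VSMC against WT VSMC it was 0, against 2 with DESeq2 alone and 0 to 0 when leaving out each set. For unstressed EC against WT VSMC it was 1, against 2 with DESeq2 alone, 0 with no count filter, 3 without EC sets 9, 11 and 13, and 0 to 1 when leaving out each set. The order of the members by level held for 36 of 36 pairs with RPKM in each cell type and for 34 of 36 in EC with the longest transcript. Of 183 alternative values of single called genes none changed sign and 36 were no longer called, 11 of them for Prkg1 between EC and WT VSMC and 3 for Npr3 in WT VSMC. The cause was not tested.

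The limits are the number of sets and the spread between animals and cultures. With 4 sets per genotype, the SE of 0.20 to 0.67 for the members between unstressed KO VSMC and WT VSMC compares with 0.07 to 0.21 for stressor effects within sets in WT VSMC. Low counts of Pde1c and Npr1 in VSMC limit their precision, and purity of the EC sets, as seen from their markers, limits every statement on EC.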
